A study of Homo sapiens with 16 samples.

Results

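FBXL5 and 8 other genes of cellular iron handling were followed in 16HBE cells that had been treated with D. rotundifolia 3× or with Ctrl. The 9 genes are FBXL5, IREB2, ACO1, TFRC, SLC11A2, FTH1, FTL, NCOA4 and SLC40A1. They were picked by name, as FBXL5 and the best known genes around it, out of 25934 gene symbols in the series, and all 9 were listed at both times. FBXL5 was picked because the study lists it among the genes with a higher level at 3 h, so its values below describe the gene and test nothing. The choice of the other 8 was also made with results of these samples known, so no p-value is given for any of the 9.

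16HBE is a line of human bronchial epithelial cells immortalised with the large T antigen of a simian virus, so all cultures come from the cells of a single line. D. rotundifolia 3× is a decimal dilution, in water, of an ethanolic extract of whole sundew plants, and Ctrl is the ethanol solution diluted and shaken in the same way. RNA-seq of poly(A) RNA gave 16 libraries in 4 groups of 4: D. rotundifolia 3× and Ctrl at 3 h, and D. rotundifolia 3× and Ctrl at 6 h. All cultures were kept in the same low-serum medium, and the 6 h cultures were an experiment of their own. The labels number the libraries of a group 1 to 4. The study calls its 4 experiments at 3 h biological replicates, and all cultures were grown from this line. Its methods state that Ctrl and treated wells shared plates.

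Cells keep free iron within narrow bounds through a pair of iron regulatory proteins, IRP1 (gene ACO1) and IRP2 (gene IREB2), which bind a short RNA hairpin, the iron-responsive element (IRE). Bound at the 5′ end of the ferritin and ferroportin mRNAs the proteins block translation, and bound in the 3′ untranslated region of the transferrin receptor mRNA they protect it from decay. FBXL5 is the substrate receptor of a ubiquitin ligase built on SKP1, CUL1 and RBX1. It carries an iron-binding hemerythrin-like domain, is stable when iron is present, and then marks IRP2 for degradation. Airway epithelium meets inhaled iron and is known to store it in ferritin.

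The hairpins themselves tie such mRNAs to the IRPs, and are shown for the members whose searched transcript held a match to a strict pattern. They were located in the transcripts of GENCODE 44 (MANE Select, build GRCh38) by their conserved letters: an unpaired C, an upper stem of 5 base pairs, G with U allowed, and the loop CAGTGN, where N is any base but G, read on the sense strand. In each 27-base stretch the unpaired C and the loop are in capitals.
FTH1, 5′ UTR, chr11:61967575-61967601, minus strand: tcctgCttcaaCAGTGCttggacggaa
FTL, 5′ UTR, chr19:48965336-48965362, plus strand: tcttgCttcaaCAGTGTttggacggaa
SLC40A1, 5′ UTR, chr2:189580662-189580688, minus strand: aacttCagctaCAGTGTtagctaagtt
TFRC, 3′ UTR, site 1, chr3:196050980-196051006, minus strand: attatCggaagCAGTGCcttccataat
TFRC, 3′ UTR, site 2, chr3:196050576-196050602, minus strand: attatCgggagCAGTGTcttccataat
TFRC, 3′ UTR, site 3, chr3:196050511-196050537, minus strand: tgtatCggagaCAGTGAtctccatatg
TFRC, 3′ UTR, site 4, chr3:196050464-196050490, minus strand: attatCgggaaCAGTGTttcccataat
The ferritin chains share the same upper stem, and the 4 sites of TFRC lie in a single 3′ UTR. The same letters were found in the 5′ UTR of 11 of 18763 MANE Select transcripts (0.0586%) and in the 3′ UTR of 97 of 18780 (0.517%). They were not found in the UTRs of the other 5 members, which says only that this strict pattern is not in those transcripts.

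Values are deposited TPM, the abundance of a gene's transcripts as a share of the whole library, scaled to a fixed total, which corrects for transcript length. The tables' header calls them length-scaled, a term also used for counts, so this was checked. The deposited mean normalised count per TPM was higher for longer MANE Select transcripts (Spearman's rho 0.62 over 11427 genes at 3 h and 0.62 over 11458 at 6 h, a description across genes, which are not independent), and for the members it ran from 25.3 in FTH1 to 159.9 in ACO1 at 3 h. The values were therefore read as TPM per length, although a gene's count per TPM also differs for its mix of transcripts. TPM added up to 997870 to 999300 per library, with 12764 to 14239 genes at 1 TPM or more. Mitochondrial transcripts took 2.54% to 4.53% and ribosomal protein genes 11.4% to 13.4% of the TPM. All 7 epithelial markers were present (summed level 9271 to 11658 TPM in the treated and 9635 to 12008 TPM in the Ctrl libraries at 3 h, 8755 to 12360 TPM and 9153 to 11243 TPM at 6 h), while the summed markers of no other cell type passed 17.3 TPM in any library, and the secretory markers were not listed. Summed over all genes, the deposited mean normalised count was 31902241 at 3 h and 30205203 at 6 h. The depth of single libraries is unknown, so no counting interval can be given. Fewer cells and less RNA per cell cannot be told apart in such bulk samples.

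FBXL5 mRNA was higher with D. rotundifolia 3× than with Ctrl at both times, in every library. The gene (ENSG00000118564; GRCh38 chromosome 4, 15604381 to 15681679, minus strand) had 30.4, 29.9, 31.97 and 37.0 TPM with D. rotundifolia 3× at 3 h, against 23.2, 19.2, 24.4 and 22.4 TPM in Ctrl. After 6 h FBXL5 had 33.7, 36.9, 42.1 and 37.8 TPM with D. rotundifolia 3×, against 26.3, 24.8, 22.8 and 23.4 TPM in Ctrl. The lowest treated library lay above the highest Ctrl library at each time. The means were 32.3 ± 3.25 TPM with D. rotundifolia 3× and 22.3 ± 2.20 TPM in Ctrl at 3 h (SD, n = 4 each), a ratio of 1.45, and 37.6 ± 3.47 TPM with D. rotundifolia 3× and 24.3 ± 1.58 TPM in Ctrl at 6 h (SD, n = 4 each), a ratio of 1.55. On the log2(TPM + 1) scale, where 1 is added so that low values can be used and changes of low genes come out too small, FBXL5 was higher by 0.52 (standard error 0.096) at 3 h and by 0.61 (standard error 0.079) at 6 h. In the order of these changes it came 119th of 12919 genes at 3 h and 207th of 14179 at 6 h. The change at 6 h minus that at 3 h was 0.090 (standard error 0.13), which is smaller than its error. The deposited mean normalised count of FBXL5 was 1638 at 3 h and 1734 at 6 h, so its values did not rest on few reads.

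**Figure D1:**
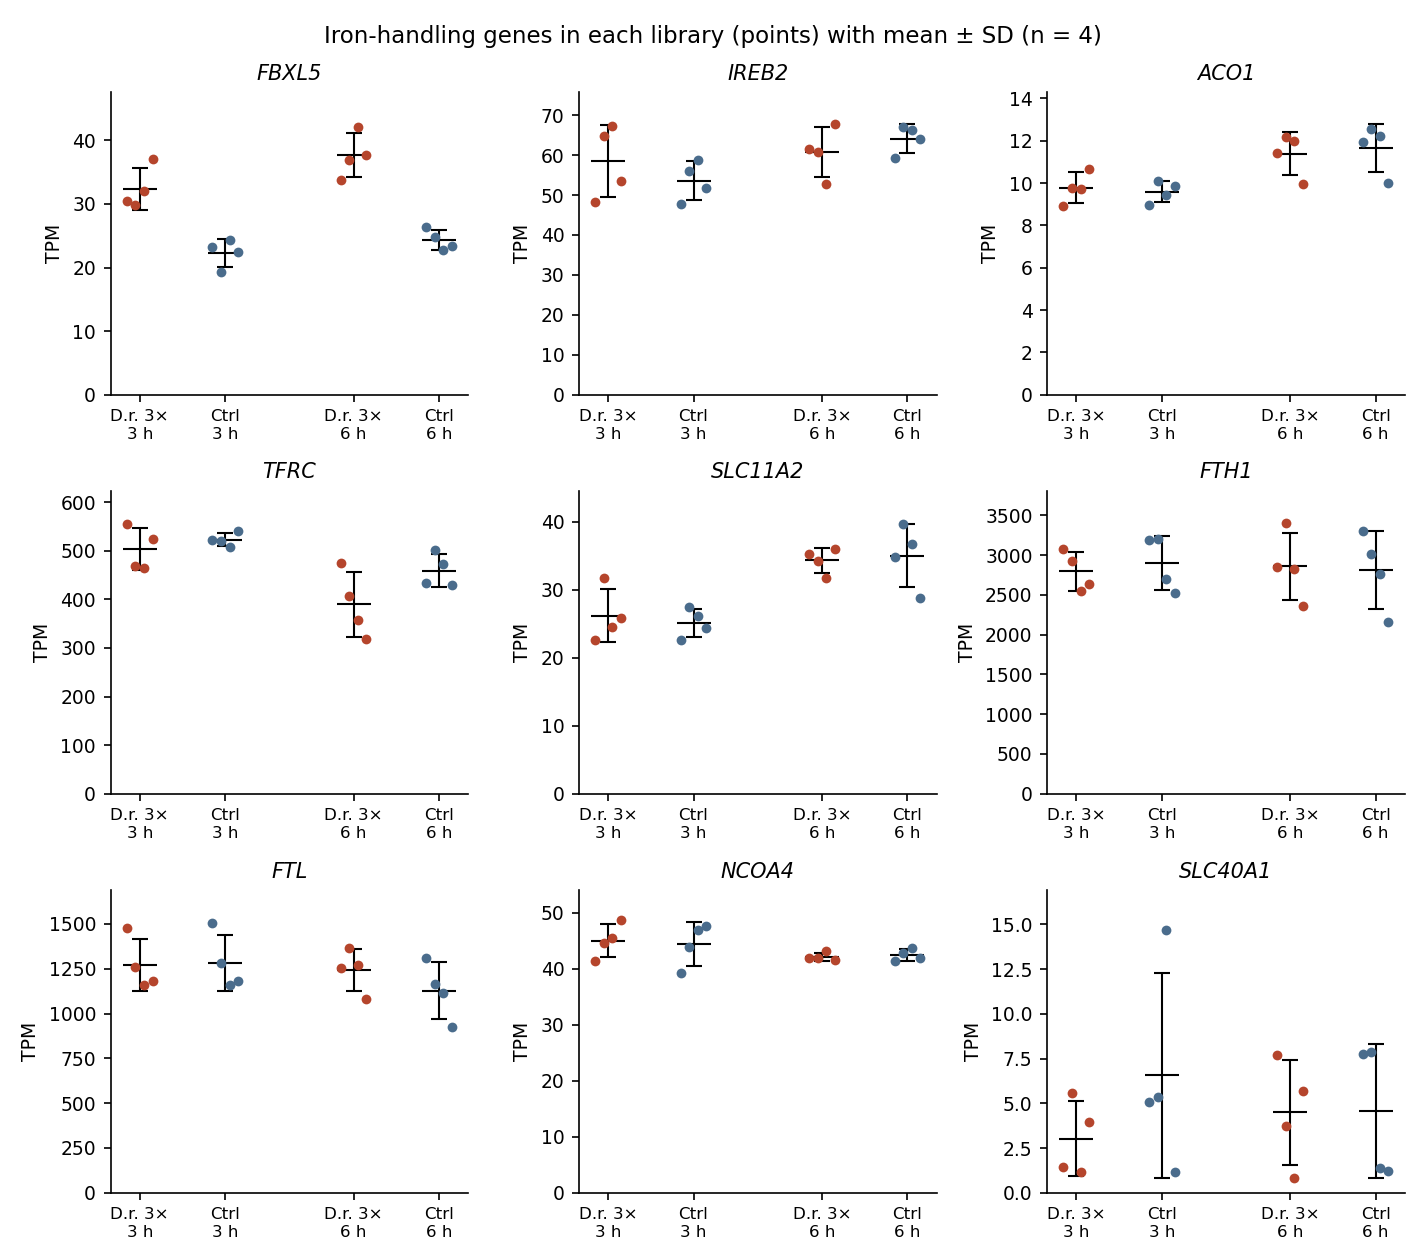
TPM of the 9 iron-handling genes in each library (points; red, D. rotundifolia 3×, marked D.r. 3×; blue, Ctrl) at 3 h and 6 h, with mean and SD (black, n = 4); every axis starts at 0 and has its own scale. FBXL5 is the gene whose treated and Ctrl points do not overlap at either time (29.9 to 37.0 against 19.2 to 24.4 TPM at 3 h, 33.7 to 42.1 against 22.8 to 26.3 TPM at 6 h).

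The mRNAs of the iron regulatory proteins did not separate the groups at either time. IREB2 (ENSG00000136381; chromosome 15, 78437431 to 78501453), which encodes the IRP that FBXL5 marks for degradation, had 48.3, 64.7, 67.4 and 53.5 TPM with D. rotundifolia 3× at 3 h, against 47.8, 55.9, 58.9 and 51.6 TPM in Ctrl. The groups overlapped, although each treated library lay above the Ctrl library of its number, and the log2 change of 0.12 was as large as its standard error of 0.12. With the replicate number as a block the standard error of IREB2 at 3 h was 0.049. At 6 h IREB2 had 61.5, 60.7, 52.6 and 67.9 TPM with D. rotundifolia 3×, against 59.2, 67.1, 66.2 and 64.0 TPM in Ctrl, a log2 change of −0.082 (standard error 0.081) with its sign turned round. ACO1 (ENSG00000122729; chromosome 9, 32384603 to 32454769) encodes IRP1, which works as the cytosolic aconitase when it holds an iron-sulfur cluster. It was the less abundant of the pair, with 9.77 ± 0.725 TPM with D. rotundifolia 3× and 9.59 ± 0.492 TPM in Ctrl at 3 h (SD, n = 4 each), and 11.4 ± 1.01 TPM with D. rotundifolia 3× and 11.7 ± 1.14 TPM in Ctrl at 6 h (SD, n = 4 each). Its log2 changes were 0.024 (standard error 0.078) and −0.031 (standard error 0.093).

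Of the 2 members that act in iron uptake, TFRC had the larger difference at 6 h, where its groups overlapped. TFRC (ENSG00000072274; chromosome 3, 196012511 to 196082153) encodes the receptor that takes up transferrin-bound iron. The strict pattern found the 4 sites shown above in its searched transcript. At 3 h it had 555, 470, 466 and 525 TPM with D. rotundifolia 3×, against 522, 520, 508 and 540 TPM in Ctrl, a log2 change of −0.057 (standard error 0.064). After 6 h TFRC had 475, 408, 357 and 318 TPM with D. rotundifolia 3×, against 434, 502, 473 and 429 TPM in Ctrl. Of these treated libraries 3 lay below all Ctrl libraries, and library 1 lay above 3 of them. The mean was 390 ± 67.9 TPM with D. rotundifolia 3× and 459 ± 34.2 TPM in Ctrl (SD, n = 4 each), a mean 15.2% lower in the treated cells and a log2 change of −0.25 (standard error 0.12). The change at 6 h minus that at 3 h was −0.19 (standard error 0.14).

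SLC11A2 (ENSG00000110911; chromosome 12, 50979401 to 51028566) encodes DMT1, the transporter that moves ferrous iron out of endosomes into the cytosol. It had 26.2 ± 3.94 TPM with D. rotundifolia 3× and 25.1 ± 2.08 TPM in Ctrl at 3 h (SD, n = 4 each), with log2 change 0.049 (standard error 0.11). The 6 h cultures had 34.3 ± 1.86 TPM with D. rotundifolia 3× and 35.0 ± 4.603 TPM in Ctrl (SD, n = 4 each), with log2 change −0.021 (standard error 0.097). Its groups overlapped at both times. Both differences were smaller than their errors.

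The ferritin genes were the most abundant of the 9, and their treated and Ctrl libraries overlapped at both times. FTH1 (ENSG00000167996; chromosome 11, 61959718 to 61967634) encodes the heavy chain, the ferroxidase of the ferritin shell. It had 3078, 2920, 2553 and 2633 TPM with D. rotundifolia 3× at 3 h, against 3186, 3199, 2699 and 2528 TPM in Ctrl. After 6 h FTH1 had 2845, 3398, 2828 and 2364 TPM with D. rotundifolia 3×, against 3304, 3014, 2767 and 2159 TPM in Ctrl. Library 4 was the lowest of its group in both arms at 6 h, and the spread between libraries was wider than the difference of the groups. The log2 changes were −0.051 (standard error 0.094) at 3 h and 0.030 (standard error 0.15) at 6 h.

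FTL (ENSG00000087086; chromosome 19, 48965309 to 48966879) encodes the light chain, which favours the growth of the iron core. It had 1477, 1259, 1159 and 1184 TPM with D. rotundifolia 3× at 3 h, against 1507, 1280, 1162 and 1182 TPM in Ctrl, so that libraries of the same number were within 30 TPM of each other and the log2 change was −0.014 (standard error 0.10). After 6 h FTL had 1254, 1366, 1273 and 1079 TPM with D. rotundifolia 3×, against 1310, 1163, 1112 and 925 TPM in Ctrl, a log2 change of 0.15 (standard error 0.11). Both ferritin genes have processed pseudogenes with near-identical sequence, to which reads can be lost or from which they can be gained. Those listed held together at most 0.877% of the TPM of FTH1 and 0.310% of that of FTL in any library. NCOA4 (ENSG00000266412; chromosome 10, 46005088 to 46030623), the receptor that carries ferritin to autophagosomes and so releases its iron, differed little: it had 45.04 ± 2.97 TPM with D. rotundifolia 3× and 44.4 ± 3.86 TPM in Ctrl at 3 h (SD, n = 4 each), and 42.2 ± 0.691 TPM with D. rotundifolia 3× and 42.5 ± 1.02 TPM in Ctrl at 6 h (SD, n = 4 each). Its log2 changes were 0.022 (standard error 0.080) and −0.0097 (standard error 0.045), and the error at 6 h was the smallest of the 9 genes at either time.

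SLC40A1 (ENSG00000138449; chromosome 2, 189560590 to 189583758), which encodes ferroportin, the exporter of iron from cells, was low and scattered. It had 1.42, 5.56, 1.17 and 3.94 TPM with D. rotundifolia 3× at 3 h, against 5.05, 5.35, 14.7 and 1.16 TPM in Ctrl. At 6 h it had 7.72, 3.75, 0.845 and 5.66 TPM with D. rotundifolia 3×, against 7.78, 7.86, 1.39 and 1.216 TPM in Ctrl. Both groups held libraries near 1 TPM and libraries several times higher, and at 3 h the low libraries carried the numbers 1 and 3 with D. rotundifolia 3× and the number 4 in Ctrl. The log2 changes, −0.74 (standard error 0.59) at 3 h and 0.076 (standard error 0.63) at 6 h, had the widest errors of the 9 genes. Leaving out 1 library or both libraries of a number, or changing the scale, moved the 3 h value between −1.38 and −0.029. The deposited mean normalised count was 206 at 3 h and 224 at 6 h, the lowest of the 9.

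**Figure D2:**
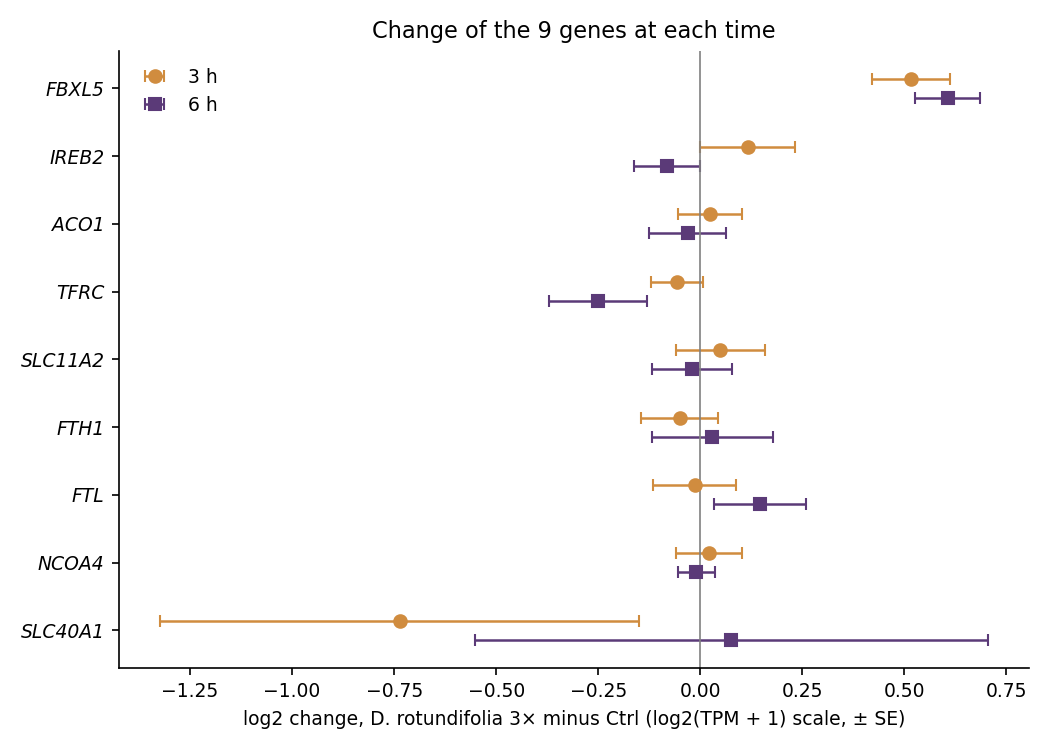
Log2 change of each of the 9 genes, D. rotundifolia 3× minus Ctrl, on the log2(TPM + 1) scale at 3 h (orange circles) and 6 h (purple squares), with standard errors as bars. FBXL5 lies at 0.52 and 0.61, the bars of SLC40A1 are the widest, and TFRC at 6 h lies at −0.25.

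As a group the 9 genes stood close to all other genes. Their median log2 change was 0.022 at 3 h and −0.0097 at 6 h, beside 0.015 and 0.0052 over all genes tested. Leaving FBXL5 and SLC40A1 aside, no log2 change was larger in size than 0.12 at 3 h or 0.25 at 6 h. FBXL5 was the 1 member of 9 with every treated library above every Ctrl library, at each time; over all genes tested such a gap was found in 1.02% at 3 h and 3.43% at 6 h. No member of the 9 had every treated library below every Ctrl library, which 0.503% of all genes did at 3 h and 1.65% at 6 h.

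With limma, a linear model fitted gene by gene with shared information on the spread and p-values adjusted over all genes by Benjamini-Hochberg, 0 of 12919 genes (0%) were called at 3 h at a threshold of 0.05, where 311 had an unadjusted p under 0.05. With the replicate number as a block, 1 gene was called at 3 h and 888 had an unadjusted p under 0.05. At 6 h 16 of 14179 genes (0.113%) were called, all of them higher. Of the 9 members, 0 were called at 3 h and 1, FBXL5, at 6 h. FBXL5 was picked for its level at 3 h, but with the results of both times known, so its call at 6 h adds nothing to its values. The call was present in 5 of 20 alternative settings, and was lost on leaving out any single library at 6 h other than the treated library 1. Over all 20 settings its log2 change ran from 0.52 to 0.69 at 6 h and, over the same 20 at 3 h, from 0.45 to 0.56. For the difference between the times, 1 of 12623 genes (0.00792%) was called, and it was none of the 9.

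Among the levels in TPM, read as per length, FTH1 came first in both arms and at both times, followed by FTL, TFRC, IREB2, NCOA4, FBXL5 or SLC11A2, ACO1 and SLC40A1. In the treated cells FBXL5 stood above SLC11A2, at 32.3 against 26.2 TPM at 3 h and 37.6 against 34.3 TPM at 6 h. In Ctrl it stood below, at 22.3 against 25.1 TPM at 3 h and 24.3 against 35.0 TPM at 6 h. At 6 h with D. rotundifolia 3× these neighbours lay within the SD of FBXL5, 3.47 TPM. ACO1 and SLC40A1, the last of the order, overlapped in Ctrl at 3 h, where SLC40A1 had 14.7 TPM in 1 library and ACO1 averaged 9.59 TPM. The mean of TFRC was lower at 6 h than at 3 h in both arms, with 504 TPM at 3 h and 390 TPM at 6 h with D. rotundifolia 3×, and 523 and 459 TPM in Ctrl. That of SLC11A2 was higher at 6 h, with 26.2 TPM at 3 h and 34.3 TPM at 6 h with D. rotundifolia 3×, and 25.1 and 35.0 TPM in Ctrl. The 2 times are separate experiments whose tables were made apart, so these levels are only set side by side.

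A start of FBXL5 is shown because its mRNA level is the value that separates the groups. It lies inside the gene span given above, whose 5′ end is at base 15681679. Sequence before that end was not searched. The 250 bases before the start of transcription that RefSeq gives (GRCh38.p14, chr4:15655358-15655607, minus strand) are printed 5′ to 3′, with the E-box CACGTG in capitals.
FBXL5 upstream sequence: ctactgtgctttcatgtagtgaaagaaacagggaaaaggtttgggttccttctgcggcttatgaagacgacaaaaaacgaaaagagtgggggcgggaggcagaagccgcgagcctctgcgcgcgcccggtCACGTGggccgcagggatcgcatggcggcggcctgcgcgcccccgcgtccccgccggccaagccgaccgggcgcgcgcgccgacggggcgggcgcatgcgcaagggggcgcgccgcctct
In windows of 300 bases around each start (250 before and 50 after), 4 motifs were searched on both strands. The E-box CACGTG, which 7.26% of 35116 windows hold, was present 1 time in FBXL5. Because it is a palindrome around ACGTG, the core of the hypoxia response element (21.4% of windows), that core is counted on both strands at the same place. The antioxidant response core TGACNNNGC (13.3% of windows) was found 1 time and overlaps the edge of the E-box. The xenobiotic response core GCGTG, the letters bound by the aryl hydrocarbon receptor, was not found in the window of FBXL5, while 36.5% of windows hold it. Of the other members, TFRC held 1 hypoxia core, FTL 1 hypoxia core and 2 xenobiotic cores, and ACO1 1 xenobiotic core. IREB2 held 1 xenobiotic core in 1 of its 2 windows, SLC11A2 held 4, 1 and 1 in 3 of its 4 windows, and NCOA4 held 1 antioxidant core in 1 of its 2. SLC40A1 held none of the 4 motifs. A match describes letters and not a bound site, and its absence says only that these letters are not in this window. FTH1 was not matched to a window.

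Around the 9 members, 99 further iron genes were counted in 9 lists, of which 94 were in the tables and 89 at 3 h and 88 at 6 h averaged at least 1 TPM and were tested. At 3 h limma called 0 of the 89 (0% of all genes were called), 1 had an unadjusted p under 0.05, and with the replicate number as a block 0 were called and 7 had an unadjusted p under 0.05. Their means were higher with D. rotundifolia 3× in 50 and lower in 39, with a median log2 change of 0.0099 beside 0.015 over all genes. The 7 were ATG7, SLC3A2, CHAC1, ALAS1, FLVCR2, CIAO2B and HERC2, and over all genes 888 of 12919 had such a p with the block. SLC3A2 (log2 change 0.17, standard error 0.14) and ALAS1 (0.19, standard error 0.14) were higher in the treated library of each number, with groups that overlapped. The 1 gene with such a p in the fit with no block was ATG7, the E1-like enzyme of autophagosome formation. It had 25.2, 27.0, 27.0 and 22.4 TPM with D. rotundifolia 3×, against 22.5, 21.0, 21.1 and 18.9 TPM in Ctrl, so its groups overlapped by the treated library 4 and the Ctrl library 1 (log2 change 0.27, standard error 0.084, adjusted p = 1.00 from limma).

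The partners of FBXL5 in its ligase did not separate the groups at 3 h. SKP1, the adaptor that links the F-box protein to the cullin, CUL1, the scaffold, RBX1, the RING subunit, NEDD8 and CAND1, which control cullin activity, had log2 changes between −0.022 and 0.016. HERC2, a ubiquitin ligase known to act on FBXL5 itself, had 18.3, 18.1, 15.4 and 17.7 TPM with D. rotundifolia 3× at 3 h, against 35.4, 26.5, 13.5 and 28.2 TPM in Ctrl (log2 change −0.48, standard error 0.25, adjusted p = 1.00 from limma). The treated libraries lay close together and the Ctrl libraries were spread on both sides of them. The 3 h level of HERC2 is a sum over 3 gene IDs, and for the most abundant of them taken alone the log2 change was 0.051. HERC2 also has partial duplicates in the genome that may share its reads, which was not tested, so its level is uncertain. At 6 h, where 1 gene ID is listed, it had 21.5 ± 4.83 TPM with D. rotundifolia 3× and 20.7 ± 3.05 TPM in Ctrl (SD, n = 4 each).

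The other lists at 3 h held differences of both signs. The log2 change was 0.24 (standard error 0.19) for SLC39A8, a zinc and iron importer, and −0.17 (standard error 0.20) for SLC22A17, a receptor for lipocalin-bound iron. SLC25A28, the mitochondrial iron importer mitoferrin-2, had 13.6 ± 1.49 TPM with D. rotundifolia 3× and 11.6 ± 1.31 TPM in Ctrl (SD, n = 4 each), a log2 change of 0.21 (standard error 0.10). FLVCR2, a member of the heme exporter family that also carries choline, had 29.3 ± 9.76 TPM with D. rotundifolia 3× and 38.8 ± 7.501 TPM in Ctrl (SD, n = 4 each). CHAC1, which breaks down glutathione, had 15.4, 10.1, 11.1 and 7.52 TPM with D. rotundifolia 3×, against 13.3, 7.05, 6.44 and 3.97 TPM in Ctrl, higher in the treated library of each number although the groups overlapped (log2 change 0.54, standard error 0.31). ACSL4, which loads membranes with polyunsaturated fatty acids, was lower in each treated library than in the Ctrl library of its number, with 29.5 ± 3.39 TPM with D. rotundifolia 3× and 33.5 ± 3.998 TPM in Ctrl (SD, n = 4 each). All of these had an adjusted p = 1.00 from limma.

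At 6 h limma called 0 of the 88 listed iron genes, beside 0.113% of all genes, and 10 had an unadjusted p under 0.05 (1139 of 14179 over all genes). Their means were higher with D. rotundifolia 3× in 47 and lower in 41, with a median log2 change of 0.016 beside 0.0052 over all genes. In 6 of them every treated library lay above every Ctrl library and in 3 every treated library lay below, beside 3.43% and 1.65% of all genes. The 6 were SLC25A28, ALAS1, ABCG2, SLC3A2, AIFM2 and STEAP3, and the 3 were RBX1, ALAD and CISD1, an iron-sulfur protein of the outer mitochondrial membrane. ALAD and CISD1 were named after their values were seen.

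In the fit with no replicate term, the 2 smallest p-values of the list genes at 6 h belonged to SLC25A28, of the mitochondrial iron list, and ALAS1, of the heme list. SLC25A28 had 14.6, 13.98, 13.97 and 16.3 TPM with D. rotundifolia 3×, against 11.6, 10.9, 10.3 and 12.2 TPM in Ctrl (log2 change 0.36, standard error 0.078, adjusted p = 0.203 from limma). ALAS1, the first and rate-limiting enzyme of heme synthesis outside red cells, had 33.1, 34.8, 34.5 and 33.2 TPM with D. rotundifolia 3×, against 29.8, 26.2, 22.8 and 26.2 TPM in Ctrl (log2 change 0.36, standard error 0.080, adjusted p = 0.204 from limma). In both genes the groups stood apart by more than their SDs, and neither passed the threshold over all genes. ALAD, the enzyme of the next step of heme synthesis, had the other sign, with 10.5 ± 0.640 TPM with D. rotundifolia 3× and 11.8 ± 0.231 TPM in Ctrl (SD, n = 4 each).

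In the list of heme genes 13 of 17 had a higher mean at 6 h and 5 had an unadjusted p under 0.05, with a median log2 change of 0.11. Over all 14179 genes 7336 had a higher mean and 6843 a lower one, 1139 had an unadjusted p under 0.05, and the median was 0.0052. ABCG2, a transporter that exports porphyrins and heme, had 30.8, 26.4, 24.1 and 23.1 TPM with D. rotundifolia 3×, against 21.1, 20.6, 21.5 and 19.3 TPM in Ctrl (log2 change 0.32, standard error 0.092, adjusted p = 0.406 from limma). HMOX1, the inducible heme oxygenase that frees iron from heme, was named after its values were seen: it had 8.89, 13.6, 12.2 and 11.7 TPM with D. rotundifolia 3×, against 9.24, 9.78, 9.01 and 8.98 TPM in Ctrl (log2 change 0.28, adjusted p = 0.593 from limma). Its treated library 1 lay below every Ctrl library and the other 3 lay above all of them. The largest log2 change of the list, 0.80 for FLVCR2, had a standard error of 0.70: it had 44.5, 57.1, 27.4 and 40.7 TPM with D. rotundifolia 3×, against 43.98, 3.64, 31.8 and 48.6 TPM in Ctrl, where library 2 stood apart.

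In the list of genes around iron-dependent lipid peroxidation 7 of 11 had a higher mean at 6 h and 4 a lower one (7336 and 6843 of 14179 over all genes). The median log2 change was 0.041 beside 0.0052, and 2 had an unadjusted p under 0.05 (1139 of 14179 over all genes). Log2 changes ran from −0.11 to 0.63, the latter for CHAC1 (standard error 0.35), whose groups overlapped. SLC3A2 had the largest difference between groups that did not overlap. SLC3A2 encodes the heavy chain of the cystine importer whose light chain is SLC7A11. It had 401, 390, 447 and 606 TPM with D. rotundifolia 3× at 6 h, against 279, 247, 300.4 and 373 TPM in Ctrl (log2 change 0.61, standard error 0.17, adjusted p = 0.361 from limma). Library 4 was the highest of its group in both arms. SLC7A11, named after its values were seen, had 6.74, 6.35, 8.73 and 10.2 TPM with D. rotundifolia 3×, against 4.01, 4.61, 5.50 and 9.13 TPM in Ctrl, with overlap and the same high library 4 in both arms (log2 change 0.44, standard error 0.23). AIFM2, which encodes the ubiquinone reductase FSP1, had 27.4 ± 1.91 TPM with D. rotundifolia 3× and 23.6 ± 1.03 TPM in Ctrl (SD, n = 4 each; log2 change 0.21, adjusted p = 0.461 from limma).

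**Figure D3:**
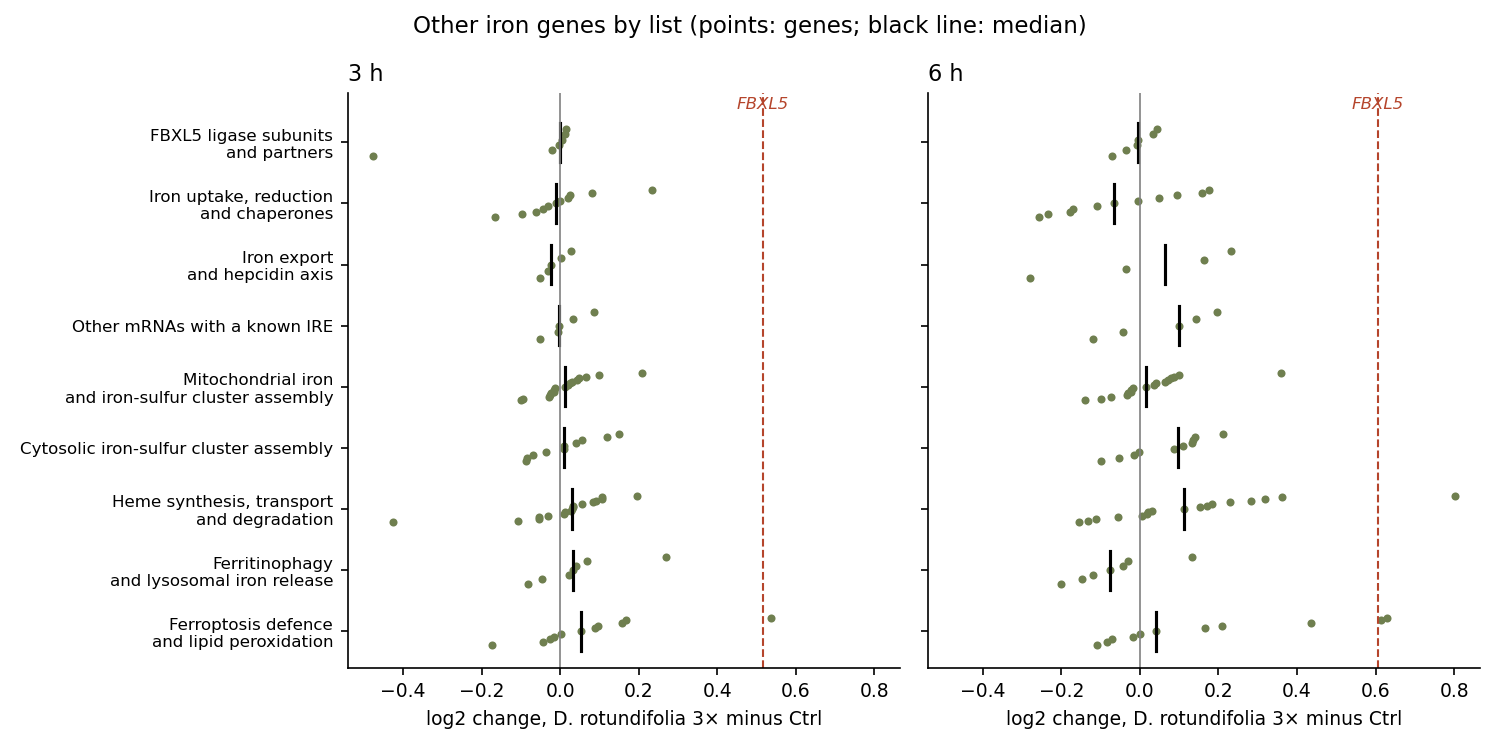
Log2 change (D. rotundifolia 3× minus Ctrl, log2(TPM + 1) scale) of each tested gene in the 9 iron lists at 3 h (left) and 6 h (right); points are genes, black lines the list medians and the dashed red line FBXL5. The medians lie within 0.053 of 0 at 3 h, and at 6 h the highest is that of the heme list at 0.11; none of the plotted list genes passed limma's test over all genes.

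The remaining lists at 6 h lay near the median of all genes or on either side of it. In the ligase of FBXL5, RBX1 had 52.1, 53.0, 53.4 and 54.0 TPM with D. rotundifolia 3×, against 55.6, 55.7, 54.9 and 57.0 TPM in Ctrl, a gap in every library but a log2 change of only −0.070 (standard error 0.043, adjusted p = 0.726 from limma). STEAP3, the ferrireductase of the transferrin endosome, had 3.59 ± 0.0976 TPM with D. rotundifolia 3× and 3.11 ± 0.163 TPM in Ctrl (SD, n = 4 each; adjusted p = 0.637 from limma). Its relative STEAP4 had the other sign, with 18.7 ± 3.92 TPM with D. rotundifolia 3× and 22.3 ± 3.39 TPM in Ctrl. Of 7 genes of ferritinophagy and lysosomal iron release, 6 had a lower mean (6843 of 14179 over all genes) and 1 an unadjusted p under 0.05, with a median log2 change of −0.075 beside 0.0052. Among them was ATG5, part of the conjugation machinery of autophagy, at 38.3 ± 1.13 TPM with D. rotundifolia 3× and 41.7 ± 1.62 TPM in Ctrl (SD, n = 4 each; adjusted p = 0.608 from limma). NEO1, the neogenin co-receptor of the hepcidin pathway, had a log2 change of 0.23 (adjusted p = 0.644) and TMPRSS6, the protease that restrains hepcidin, one of −0.28 (adjusted p = 0.719). Of the other mRNAs with a known IRE, CDC42BPA, a kinase of the cytoskeleton, had a log2 change of 0.20 (adjusted p = 0.644). These adjusted p-values too are from limma.

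For the 89 listed iron genes tested over both times, limma called 0 for the difference between the change at 6 h and that at 3 h, against 0.00792% of all genes, and 2 had an unadjusted p under 0.05. The smallest adjusted p was 0.999. The 2 were CIAO2B, an adaptor that hands iron-sulfur clusters to target proteins, and ATG7, which had log2 changes of 0.27 at 3 h and −0.031 at 6 h.

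The genes whose levels followed FBXL5 most closely over the 16 libraries were TIPARP, EPGN, LAMA1, MAL and CGRRF1. Likeness was the Pearson correlation of log2(TPM + 1) with each time's mean removed, over 9878 genes averaging 5 TPM or more. It was 0.92 for TIPARP, a mono-ADP-ribosyltransferase, 0.88 for EPGN, an EGFR ligand, 0.87 for LAMA1, a laminin chain of basement membranes, 0.87 for MAL, a membrane protein of apical transport, and 0.85 for CGRRF1, a RING-finger protein. These are the highest of 9878 values and are given as a description. The points share the treatment groups, and with the group means removed as well the values were 0.28, 0.49, 0.44, 0.71 and 0.70 in the same order. TIPARP had 39.1, 34.7, 37.4 and 34.9 TPM with D. rotundifolia 3× at 3 h, against 23.1, 16.4, 20.6 and 21.9 TPM in Ctrl. At 6 h it had 16.2, 13.9, 16.2 and 13.3 TPM with D. rotundifolia 3×, against 8.21, 5.70, 7.74 and 6.12 TPM in Ctrl. The gap between the arms was of a like kind to that of FBXL5, while the level of TIPARP at 6 h was less than that at 3 h in both arms. The other members were far from this pattern: the correlation with FBXL5 was −0.56 for TFRC and lay between −0.078 and 0.22 for the 6 others above 5 TPM.

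**Figure D4:**
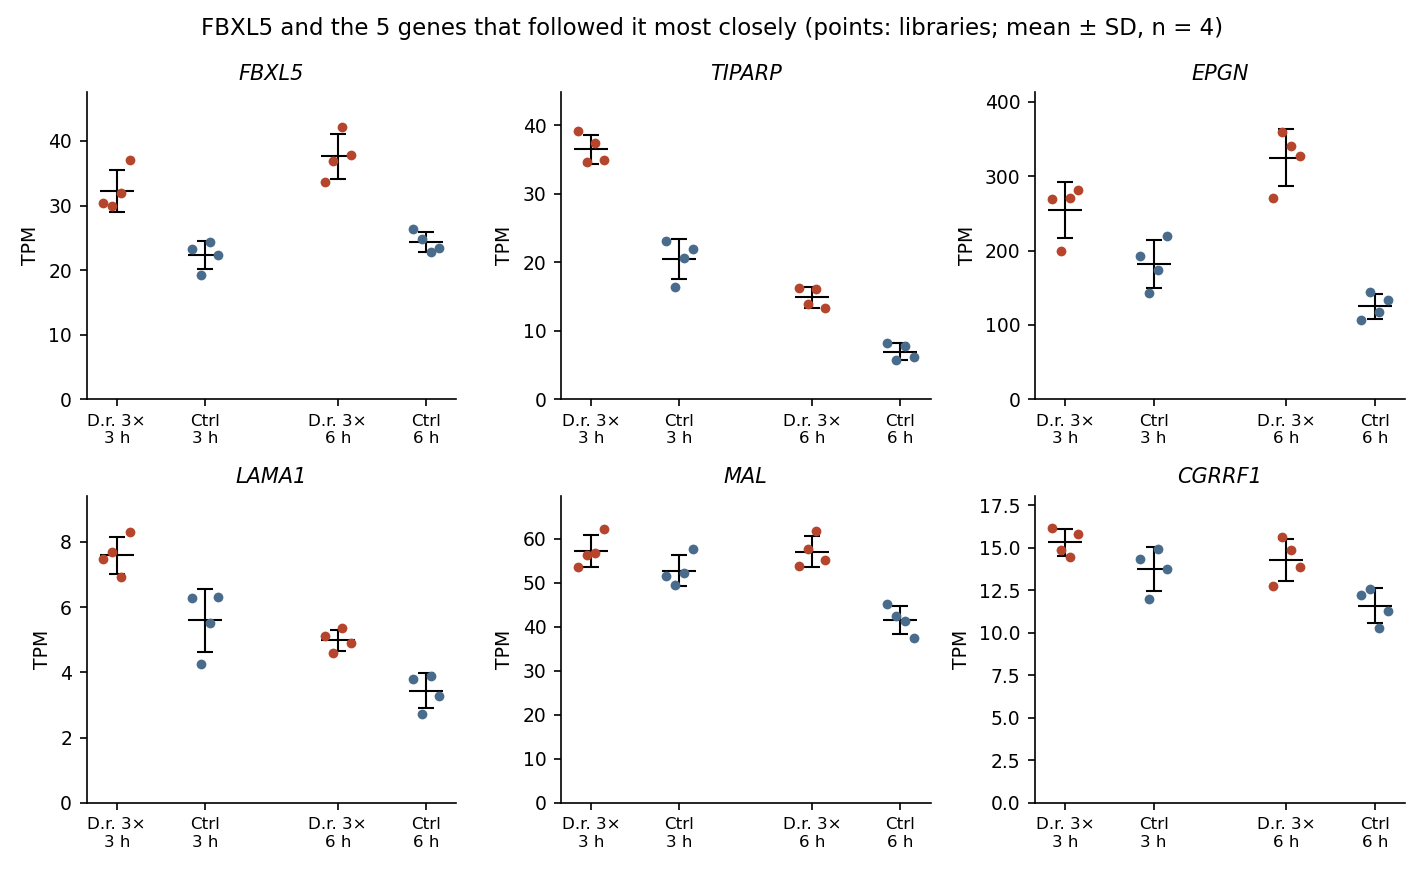
TPM of FBXL5 and of the 5 genes most correlated with it, in each library (points; red, D. rotundifolia 3×, marked D.r. 3×; blue, Ctrl) at 3 h and 6 h, with mean and SD (black, n = 4); every axis starts at 0 and has its own scale. TIPARP separates the groups at both times, at 34.7 to 39.1 against 16.4 to 23.1 TPM at 3 h, and its levels are lower at 6 h.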

How the data were processed

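RNA of 16HBE cells was quantified by the authors with Salmon 0.13.1 (single-end reads, stranded library, GC-bias correction, GENCODE 32, GRCh38.p13), summed to genes with tximport and tested with DESeq2 1.22.2 after genes with few reads were discarded. The deposited TPM of each library was used. Each table also holds, per gene, the authors' mean normalized count, a signal printed here as depth, and columns not used here: the authors' log2 fold change (shrunken) with its standard error, the deposited Wald score, and the deposited p-value, raw and adjusted. TPM keeps no depth, and no count model was fitted. The header calls the TPM lengthScaledTPM; count per TPM was compared with transcript length.

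TPM was summed over the gene IDs of a symbol; 89 repeated rows at 6 h were dropped. limma 3.58.1 (R 4.3.3) was fitted to log2(TPM + 1), keeping genes that averaged 1 TPM or more, with a trend and no replicate term, two-sided, adjusted by Benjamini-Hochberg at 0.05. Each time was fitted alone, and the difference between times was an interaction over 16 libraries. Fits were tested on simulated data with independent noise in each library, which cannot show the effect of deviations shared by same-numbered libraries. Members and lists were chosen with earlier results of these data known. Named were all 9 members, up to 2 genes per list and time with the smallest p, every list gene past the threshold (there was none), the 5 genes most correlated with FBXL5, and the ferritin pseudogenes as sums. The text gives values for only some of these list genes, and 1 is not reported here. At 3 h same-numbered libraries deviated together (correlations 0.187 to 0.469, all above 0.1), so a fit with the numbers as pairs was also made. The labels do not state such pairs. Standard errors and p-values in the text are from the fit with no replicate term unless the block is named. Alternatives covered scaling, filter, pseudocount, trend, gene IDs, the replicate block and leaving libraries out. Coordinates are from GENCODE 44, promoters from RefSeq, and figures were made with matplotlib 3.10.9 in Python 3.11.15.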

Additional observations from a re-analysis of the deposited data

Results flagged for a closer look

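CIAO2B, an adaptor of cytosolic iron-sulfur cluster assembly, was singled out because its sign differed between the times: its log2 change was −0.087 at 3 h, lower in each treated library than in the Ctrl library of the same number, and 0.11 at 6 h, higher in each. The change at 6 h minus that at 3 h was 0.20 (standard error 0.067), and limma's test of this difference did not pass (adjusted p = 0.999, 0.161 in a fit with a block for the replicate number). CIAO2B had 139, 131, 130 and 133 TPM with D. rotundifolia 3× at 3 h, against 150, 143, 132 and 142 TPM in Ctrl. At 6 h it had 143, 139, 147 and 145 TPM with D. rotundifolia 3×, against 139, 126, 133 and 134 TPM in Ctrl. In the 36 groups of 4 libraries looked at for the 9 members, 0 held a library that stood apart by Dixon's criterion, where chance gives 1 in 20.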

How the results depend on the processing

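Log2 changes of the 9 members kept their direction, or moved by less than the spread between libraries, in 609 of 609 comparisons with an alternative. This rule seldom fails for a gene with a change near 0 or a wide spread, so signs did turn within the 609. At 6 h SLC40A1 ran from −0.43 to 0.53 and FTH1 from −0.091 to 0.12, while FBXL5 kept its sign at both times. Those of the named list genes were counted as unchanged in 715 of 716, and 0 were counted as reversed. The remaining 1, SLC3A2 at 6 h with the replicate block, kept its direction and passed the threshold. The 715 take in HERC2 at 3 h with each gene ID alone, although its sign turned there. Its log2 change went from −0.48 to 0.051, a move larger than its spread between libraries of 0.41. Counts of called genes depended on the setting. The 0 genes called at 3 h became 1 with each gene ID alone, 2 without both libraries of number 1, 1 without both of number 3, and 0 to 2 on leaving out 1 library. The 16 genes at 6 h became 7 with no filter, 26, 5, 4 and 3 without both libraries of number 1, 2, 3 and 4, and 4 to 47 on leaving out 1 library, with the highest count without the treated library 1. The 1 gene called for the difference between times became 2 with each gene ID alone, 0 without both libraries of number 2, 3 or 4, and 1 to 2 on leaving out 1 library. The 1 member called at 6 h, FBXL5, became 0 with median-ratio scaling, no filter, no trend, a pseudocount of 5, or without both libraries of number 2, 3 or 4, and 0 to 1 on leaving out 1 library.

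With the replicate number as a block, 1 gene was called at 3 h, 40 at 6 h (38 higher, 2 lower) and 32 for the difference between times (30 higher, 2 lower), with 0 members called at 3 h or 6 h. The block gave 16 of 88 list genes with an unadjusted p under 0.05 at 6 h, among them 4 of the 17 in the heme list. Over all genes it gave 1854 of 14179. It called 1 list gene at 6 h and 1 for the difference, SLC3A2 in both, with log2 change 0.61 at 6 h. The study ran Ctrl and treated wells side by side on shared plates, but does not tie the numbers to plates. Whether equal numbers at 6 h are pairs is therefore not known. At 6 h 2 of 4 same-numbered pairs had a correlation above 0.1 (0.0564, 0.0973, 0.158 and 0.204), and 6 of 8 libraries correlated best with their own number. The depth of each single library is unknown, and 4 libraries per group limit what small changes could pass. The causes of these shifts were not tested, other than fewer genes or libraries where the setting removes them.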
